A study of Mus musculus with 16 samples.

Results

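Transcripts of the mitochondrial respiratory chain and ATP synthase were compared between mouse ear skin treated with MC903 and anti-OSM, an antibody given to neutralise oncostatin M, and ear skin treated with MC903 and anti-Ly6G, an antibody given to deplete neutrophils. The set was chosen by gene symbol and holds 103 of the 45777 genes in the deposited table. Of these, 13 are the protein genes of the mitochondrial genome (ND1 to ND6, ND4L, CYTB, COX1 to COX3, ATP6 and ATP8) and 90 are nuclear. The nuclear genes are the Nduf subunits of complex I (36), the Sdh subunits of complex II (4), the Uqcr subunits of complex III (8), the Cox4 to Cox8 subunits of complex IV (18) and the Atp5 subunits of ATP synthase, complex V (24). All 13 mitochondrially encoded genes and 83 of the 90 nuclear genes had enough counts to be tested. The 7 others were Cox8c, with no read in any library, Cox7b2, with 2 reads in anti-OSM replicate 3 and 0 in the other libraries, and 5 Atp5 pseudogene entries with at most 10 reads in a library. The 83 tested include 2 more pseudogene entries, Atp5pb-ps and Atp5l2-ps.

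The respiratory chain passes electrons from NADH and succinate to oxygen and pumps protons across the inner mitochondrial membrane, and ATP synthase uses that gradient to make ATP. Complexes I, III, IV and V are built from subunits of both genomes, while complex II is wholly nuclear. Mitochondrial messenger RNAs are cut out of long transcripts that run around the circular genome, so they are made together, whereas each nuclear subunit has its own promoter. Skin holds cells of very different mitochondrial content, among them keratinocytes and, under the ear skin, muscle fibres rich in mitochondria.

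The study asks what oncostatin M and neutrophils contribute to inflammation resembling atopic dermatitis, which calcipotriol (MC903), a vitamin D analogue, induces in mouse skin. All mice were C57BL/6 and wild type by the labels, and the 6 libraries used here are polyA RNA of ear skin. Anti-OSM ears (3 libraries) received 50 µM MC903 in 20 µL of ethanol on both ears daily for 10 days, with 20 µg of anti-OSM per mouse injected into the skin every other day. Anti-Ly6G ears (3 libraries) had the same MC903 course, with 200 µg of anti-Ly6G per mouse injected into the peritoneum 2 days before and 1 and 4 days after MC903. The antibody, its route and its schedule differ together, so they cannot be told apart, and the labels used here name no isotype antibody, mouse age, collection day or batch. The labels also describe 5 control and 5 MC903 libraries, which were not analysed here, so a higher value with anti-OSM may equally be a lower value with anti-Ly6G. Nothing in them ties a replicate to its own mouse, and the p-values therefore reflect the spread among 6 libraries, which may be technical.

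Total counts ran from 52163179 to 64122588 per library. Keratinocyte markers were abundant, as the tissue label implies, with 12 genes summing to 24771 to 29435 CPM (counts scaled to a common library size) in anti-OSM and 29021 to 36852 CPM in anti-Ly6G libraries. Of 19915 tested genes 1157 were higher with anti-OSM and 1249 lower at an adjusted p below 0.05. Anti-Ly6G replicates 1 and 2 stood apart from each other, replicate 1 being high and replicate 2 low for short transcripts, so counts of genes that changed are also given without each of them.

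All 13 mitochondrially encoded genes had a positive log2 fold change with anti-OSM over anti-Ly6G, from 0.15 for COX1 to 0.58 for ATP6, with a median of 0.37 beside 0.0068 over all tested genes. Of the 13, 2 passed the test as higher, ATP6 and ND5, where 5.81% of all tested genes did, 0 were lower, and 11 did not pass. In CPM, the 3 anti-OSM values lay above all 3 anti-Ly6G values for 8 of them (ND3, ND5, ND6, COX1, COX2, COX3, ATP6 and ATP8), and 17.7% of all tested genes were so placed. The direction was positive for all 13 under every one of the 16 alternative settings, but the number that passed depended on single libraries. It was 10 without anti-Ly6G replicate 1, 0 without anti-Ly6G replicate 2 or without any 1 anti-OSM library, and 1 without anti-Ly6G replicate 3. Of all tested genes, 2.26%, 2.85% and 7.62% were called higher without anti-Ly6G replicates 1, 2 and 3, in turn. Without anti-OSM replicates 1, 2 and 3 that share was 1.43%, 2.26% and 1.18%. As these transcripts come from long shared precursors, 1 for each strand, and share libraries, the 13 genes are not 13 independent observations. In bulk skin, fewer cells of a type and less of an RNA per cell cannot be told apart. Fibroblast markers (5 of 10 called) and macrophage and monocyte markers (4 of 13) were also higher with anti-OSM, and their part in the mitochondrial difference was not tested.

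**Figure D1:**
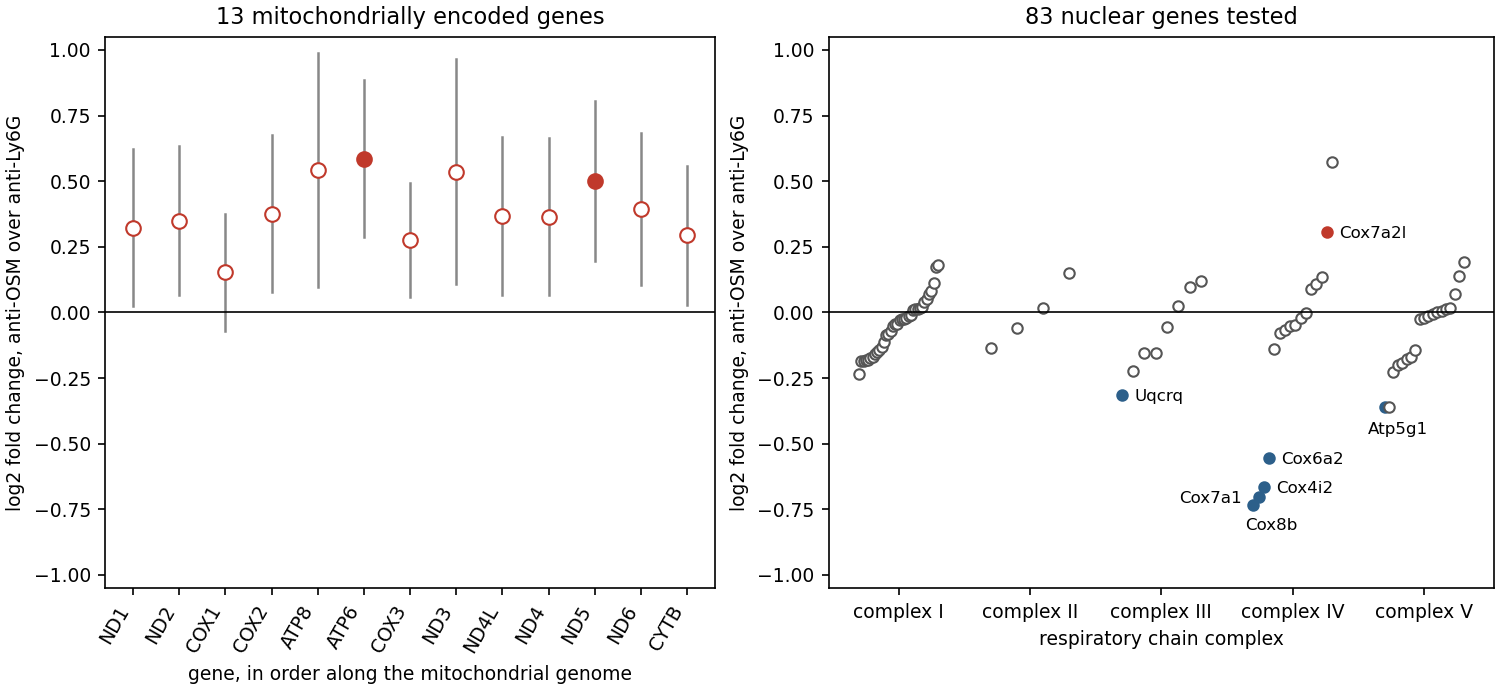
Log2 fold changes of anti-OSM over anti-Ly6G. On the left are the 13 mitochondrially encoded genes in genome order, with 95% intervals and with the 2 genes that passed the test filled and, on the right, the 83 nuclear genes tested, by complex, filled where they passed. All mitochondrially encoded genes lie above 0, while the nuclear genes spread around it with 6 called lower and 1 higher.

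ATP6 encodes the proton channel subunit a of ATP synthase, and ATP8 a small membrane subunit beside it. Their reading frames overlap on the mitochondrial genome, at chrM:7927-7969 on the plus strand (GRCm38, sequence from GENCODE vM21 transcripts), so reads from the shared stretch cannot be given to 1 gene with certainty. The sequence is shown because the largest difference among the 13 lies beside it, and the capitals mark the start codon of ATP6.
ATP8 and ATP6 shared bases: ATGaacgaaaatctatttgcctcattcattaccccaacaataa
These 43 bases are the end of ATP8, a gene of 204 bases, and the beginning of ATP6, a gene of 681 bases. ND4L and ND4 share 7 bases on 1 strand, and ND5 and ND6 share 14 bases on opposite strands. How the authors assigned reads to overlapping genes, and whether by strand, the sources used here do not give.

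ATP6 (gene ID 17705, chromosome MT, 7927 to 8607) had 3376, 2953 and 3470.0 CPM in the anti-OSM libraries and 2601, 1907 and 2026 CPM in the anti-Ly6G libraries. The groups did not overlap, and anti-Ly6G replicate 1 lay nearest to the anti-OSM libraries. The log2 fold change came to 0.58 (SE 0.13, adjusted p = 0.0259). Leaving out 1 library gave adjusted p values of 0.0200 to 0.103, and the call was lost without each anti-OSM library and without anti-Ly6G replicate 2. ATP8 had 951, 974 and 1104 CPM in anti-OSM ears and 925, 532 and 622 CPM in anti-Ly6G ears, again without overlap but with anti-Ly6G replicate 1 close to the anti-OSM libraries. Its log2 fold change of 0.54 (SE 0.19, adjusted p = 0.109) did not pass.

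ND5 (gene ID 17721, chromosome MT, 11742 to 13565) encodes a proton-pumping subunit of complex I. It had 2640, 2448 and 2915 CPM in anti-OSM ears and 2265, 1633 and 1761 CPM in anti-Ly6G ears, with all anti-OSM libraries on top. This is a log2 difference of 0.50 (SE 0.13, adjusted p = 0.0453). The call was lost with upper-quartile scaling and on leaving out any library but anti-Ly6G replicate 1 (adjusted p 0.0265 to 0.163). The other 6 mitochondrially encoded subunits of complex I had log2 fold changes of 0.32 for ND1 to 0.54 for ND3, with adjusted p values of 0.0826 (ND6) to 0.143 (ND1). ND3 had 222, 196 and 234 CPM in anti-OSM ears and 194, 113 and 143 CPM in anti-Ly6G ears. ND6, the only 1 of the 13 genes read from the opposite strand, had 78.1, 69.7 and 80.3 CPM in anti-OSM ears and 69.7, 48.9 and 55.0 CPM in anti-Ly6G ears. Anti-OSM replicate 2 and anti-Ly6G replicate 1 were almost equal for ND3 and ND6, so their separation rests on narrow gaps.

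CYTB, the mitochondrially encoded subunit of complex III, had 4532, 4116 and 4649 CPM in anti-OSM ears and 4183, 3222 and 3447 CPM in anti-Ly6G ears, so the groups overlapped (log2 fold change 0.29, adjusted p = 0.138). The 3 catalytic core subunits of complex IV differed in size of change. COX1, which carries the oxygen-reducing site, had 13672, 12862 and 14317 CPM in anti-OSM ears and 12043, 11960.4 and 12754 CPM in anti-Ly6G ears. The groups did not overlap in CPM but did in deposited TPM. The smallest log2 fold change of the 13 was that of COX1, at 0.15 (95% interval -0.07 to 0.37; adjusted p = 0.342). COX2 had a log2 fold change of 0.38 (adjusted p = 0.0983) and COX3 of 0.28 (adjusted p = 0.0965). The separation of COX2 also rests on a narrow gap, with 2444 CPM in anti-OSM replicate 2 and 2430 CPM in anti-Ly6G replicate 1. Per unit length, COX1 was also the most abundant of the 13, with a deposited TPM (a level scaled for transcript length) of 18189 ± 950 in anti-OSM ears and 16648 ± 852 in anti-Ly6G ears (SD, n = 3 each). ND6 was the least abundant, at 302 ± 22.9 TPM in anti-OSM ears and 233 ± 35.3 TPM in anti-Ly6G ears.

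**Figure D2:**
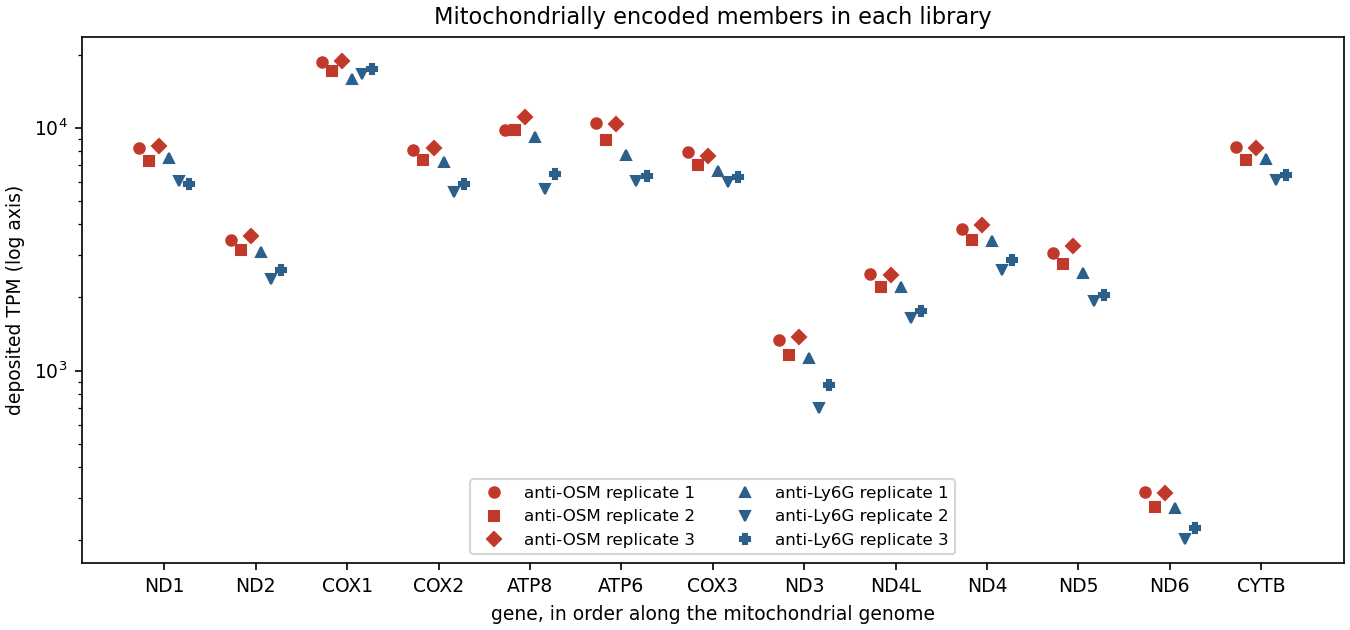
Deposited TPM (log axis) of the 13 mitochondrially encoded genes, in genome order, in each of the 3 anti-OSM and 3 anti-Ly6G libraries. Anti-Ly6G replicate 1 lies close to the anti-OSM libraries for most genes, while anti-Ly6G replicates 2 and 3 lie below all 3 of them, except for COX1, where anti-Ly6G replicate 3 (17485 TPM) lies above anti-OSM replicate 2 (17102 TPM).

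The make-up of the mitochondrially encoded pool differed among the anti-Ly6G libraries. COX1 took 34.7%, 35.4% and 34.7% of the pool's counts in anti-OSM ears, and 34.4%, 41.2% and 41.1% in anti-Ly6G ears. Anti-Ly6G replicate 1 therefore lay with the anti-OSM libraries, and replicates 2 and 3 lay apart from them. ATP6 had 24.7, 23.0 and 24.2 counts per 100 COX1 counts in anti-OSM ears and 21.6, 15.9 and 15.9 in anti-Ly6G ears, a ratio that needs no scaling between libraries and did not overlap. COX3, which lies next to ATP6 on the genome, gave 87.7, 90.4 and 84.5 counts per 100 ATP6 counts in anti-OSM ears and 98.9, 114 and 115 in anti-Ly6G ears. These ratios show unequal change among the genes, not which of them changed. The tRNA and rRNA genes of the same genome had no common direction, with 8 positive and 8 negative fold changes. Of 24 listed, 16 were tested, 0 passed in edgeR, DESeq2 or limma-voom (at an unadjusted p below 0.05, 0 were higher and 1 lower), and their median log2 fold change was 0.02. The 2 mitochondrial rRNAs summed to 808 ± 52.1 CPM in anti-OSM ears and 807 ± 209 CPM in anti-Ly6G ears (SD, n = 3 each). In polyA RNA the tRNAs and rRNAs of this genome are captured only in part, so their lack of a direction says little about their levels.

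The contrast between the genomes was larger than the spread between libraries. Summed counts, which are not scaled for length, of the 13 mitochondrially encoded genes were 4.97, 4.40 and 4.99 times those of the 90 nuclear genes in the anti-OSM libraries and 3.93, 3.59 and 3.61 times in the anti-Ly6G libraries. The means were 4.79 ± 0.339 with anti-OSM and 3.71 ± 0.193 with anti-Ly6G (SD, n = 3 each), a 1.29-fold difference without overlap. On leaving out 1 library at a time the fold stayed between 1.26 and 1.34, and it was 1.37 without COX1 and 1.32 on summed TPM. No p is given for this sum, as its members were chosen with results known. Of the 2 sides of the ratio, the mitochondrial one separated the groups. The mitochondrially encoded genes took 4.01%, 3.64% and 4.10% of all counts in anti-OSM ears and 3.47%, 2.88% and 3.12% in anti-Ly6G ears, without overlap. The nuclear genes took 0.806%, 0.827% and 0.822% in anti-OSM ears and 0.883%, 0.802% and 0.865% in anti-Ly6G ears, and these overlapped.

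The same ratio within each complex that both genomes build was higher with anti-OSM, without overlap in any of the 4. It was 1.62-fold higher for complex V, at 1.34 ± 0.116 in anti-OSM ears and 0.827 ± 0.145 in anti-Ly6G ears (SD, n = 3 each). For complex I the means were 4.99 ± 0.398 in anti-OSM ears and 3.67 ± 0.415 in anti-Ly6G ears, a 1.36-fold difference. Complex III had 5.39 ± 0.404 in anti-OSM ears and 4.13 ± 0.374 in anti-Ly6G ears, a 1.30-fold difference. Complex IV, which holds COX1, differed least, at 13.4 ± 0.872 in anti-OSM ears and 11.9 ± 0.452 in anti-Ly6G ears, or 1.13-fold.

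**Figure D3:**
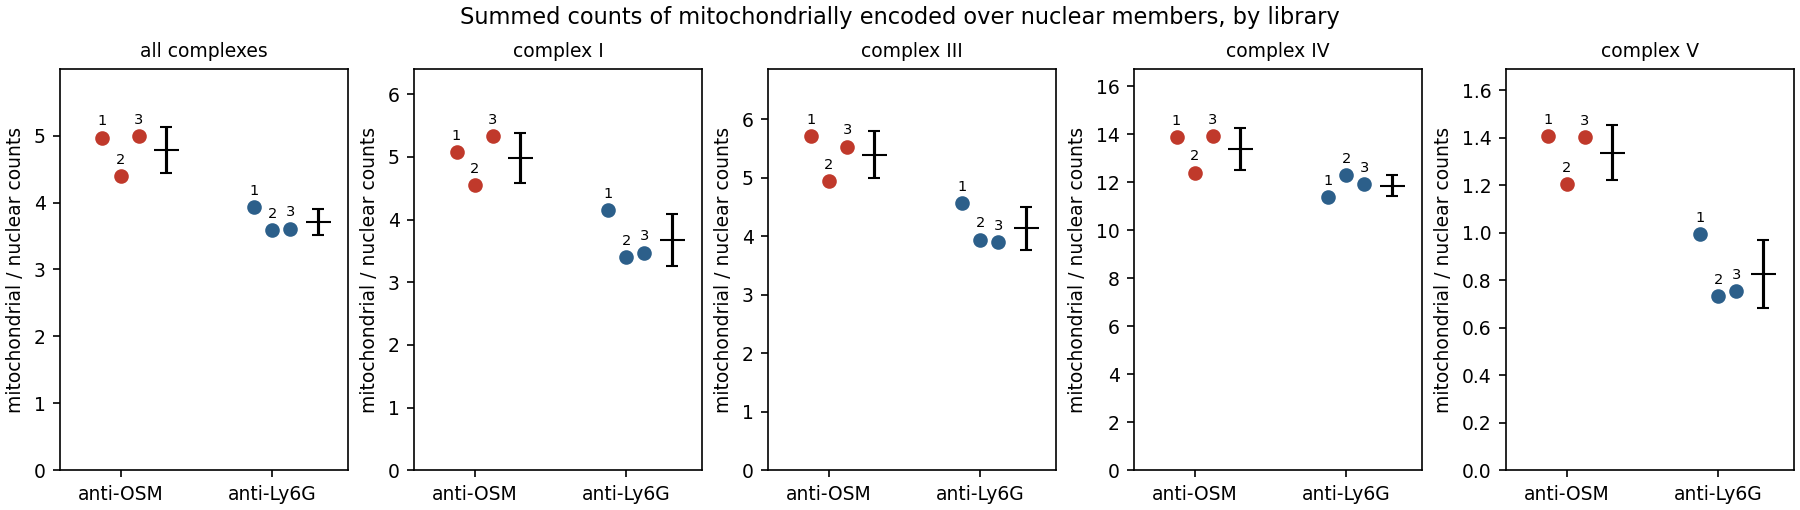
Summed counts of mitochondrially encoded over nuclear genes in each library (points numbered by replicate, anti-OSM left and anti-Ly6G right, and black marks are mean and SD, n = 3), over all complexes and for complexes I, III, IV and V. The anti-OSM libraries lie above the anti-Ly6G libraries in all 5 panels, with the largest fold for complex V and the smallest for complex IV.

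Among the 83 nuclear genes tested, 1 passed as higher (Cox7a2l), 6 as lower, where 6.27% of all tested genes were called lower, and 76 did not pass. The share called lower was thus close to that of all genes. The 6 were Cox8b, Cox7a1, Cox6a2 and Cox4i2 of complex IV, Uqcrq of complex III and Atp5g1 of complex V. Positive fold changes were counted for 29 and negative ones for 54, with a median log2 fold change of -0.04. The groups did not overlap for 27 genes that were lower and 5 that were higher with anti-OSM, against 17.3% and 17.7% of all tested genes. The balance of signs depended on the anti-Ly6G libraries, with 42 positive and 41 negative without replicate 1 (median 0.00330) and 12 positive and 71 negative without replicate 2 (median -0.10). The number called lower was 2 without anti-Ly6G replicate 1 and 6 without replicate 2 or 3. It was 1 without anti-OSM replicate 1 or 2 and 3 without anti-OSM replicate 3. Of all tested genes, 3.04%, 3.63% and 7.14% were called lower without anti-Ly6G replicates 1, 2 and 3, in turn. Without anti-OSM replicates 1, 2 and 3 that share was 2.06%, 2.52% and 2.27%. Cox8b was called in each of the 6 fits without 1 library.

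The muscle and heart isoforms of cytochrome c oxidase were among the nuclear genes that fell. Subunits 6a, 7a and 8 of complex IV each exist in a form of striated muscle (Cox6a2, Cox7a1 and Cox8b) and a form found in most tissues (Cox6a1, Cox7a2 and Cox8a). All 3 muscle forms fell, and 0 of the 3 widespread forms passed. The 250 bases before the gene start are shown for the 2 muscle forms that RefSeq's promoter table (GRCm38.p6) lists, Cox7a1 at chr7:30183921-30184170 on the plus strand and Cox8b at chr7:140900447-140900696 on the minus strand. Cox6a1 at chr5:115348959-115349208 on the minus strand is set beside them as a widespread form. Capitals mark matches on either strand to 5 short motifs: NRF1 (GCGCA and GCGC with 1 base between them), ETS (CCGGAAG), YY1 (AANATGGCG), MEF2 (CTA and TAG with 4 bases between them) and the E-box CAGCTG bound by myogenic factors.
Cox7a1 upstream: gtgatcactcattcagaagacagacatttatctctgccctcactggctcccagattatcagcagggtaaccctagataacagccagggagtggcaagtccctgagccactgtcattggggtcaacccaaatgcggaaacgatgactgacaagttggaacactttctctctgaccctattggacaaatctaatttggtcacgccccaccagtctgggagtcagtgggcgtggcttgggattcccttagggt
Cox8b upstream: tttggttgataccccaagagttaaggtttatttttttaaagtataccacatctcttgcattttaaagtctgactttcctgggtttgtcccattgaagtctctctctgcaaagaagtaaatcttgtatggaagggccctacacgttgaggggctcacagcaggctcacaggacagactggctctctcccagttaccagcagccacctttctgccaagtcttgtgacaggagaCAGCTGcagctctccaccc
Cox6a1 upstream: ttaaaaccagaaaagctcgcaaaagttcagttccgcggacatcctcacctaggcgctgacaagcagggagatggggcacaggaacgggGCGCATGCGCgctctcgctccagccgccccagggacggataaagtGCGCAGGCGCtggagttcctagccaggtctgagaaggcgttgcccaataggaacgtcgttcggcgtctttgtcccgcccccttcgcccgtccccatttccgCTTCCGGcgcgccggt
Cox7a1 held no match, Cox8b held 1 E-box, and Cox6a1 held 2 NRF1 matches and 1 ETS match, the last on the opposite strand.

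Of the 90 nuclear genes, 68 matched that table. Over windows of 250 bases before to 50 after the start, 25% of the 68 held the NRF1 motif, against 5.19% of 27025 genes in the table. The ETS motif was in 25% and 9.93%, the YY1 motif in 14.7% and 2.76%, the E-box in 8.82% and 18.3%, and the MEF2 motif in 1.47% and 4.23%, of the same 2 sets. NRF1, GABP (an ETS factor) and YY1 are known regulators of nuclear respiratory genes. Of the 3 genes called lower that matched the table (Cox7a1, Cox8b and Atp5g1), 1 held any of the 5 motifs, the E-box of Cox8b. A match is a string of letters and no evidence of binding.

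Cox8b (gene ID 12869, chromosome 7, 140898942 to 140900446) had 4.54, 4.94 and 4.78 CPM in anti-OSM ears and 8.28, 7.42 and 8.02 CPM in anti-Ly6G ears. Its libraries were tightly grouped and far apart between the groups. The log2 fold change came to -0.73 (SE 0.11, adjusted p = 0.00706), and it passed under all 16 alternatives. Cox7a1 (gene ID 12865, chromosome 7, 30184171 to 30186030) had 5.86, 4.72 and 6.55 CPM in anti-OSM ears and 10.4, 8.27 and 9.18 CPM in anti-Ly6G ears (log2 fold change -0.70, SE 0.15, adjusted p = 0.0216). Cox6a2 (gene ID 12862, chromosome 7, 128205435 to 128206366) had 24.9, 23.7 and 32.1 CPM in anti-OSM ears and 41.4, 37.3 and 39.9 CPM in anti-Ly6G ears (log2 fold change -0.55, SE 0.12, adjusted p = 0.0219). Both lost their calls without anti-OSM replicate 1 or 2 or without anti-Ly6G replicate 1, with adjusted p values of up to 0.0712 for Cox7a1 and 0.0836 for Cox6a2. Cox6a2 shares 70 of its 680 annotated exon bases with Itgad on the opposite strand.

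Their widespread partners had log2 fold changes of -0.08 for Cox6a1 (95% interval -0.23 to 0.08), -0.05 for Cox7a2 (-0.23 to 0.13) and -0.0040 for Cox8a (-0.13 to 0.13), each with overlapping groups. The sign turned for Cox7a2 without anti-Ly6G replicate 1 and for Cox8a with total-count scaling, on leaving out the second anti-OSM library, and on leaving out the third anti-Ly6G library. As a share of the TPM of each pair, Cox8b made up 6.23 ± 0.350% in anti-OSM ears and 9.93 ± 0.334% in anti-Ly6G ears. Cox7a1 made up 13.1 ± 1.73% in anti-OSM ears and 18.7 ± 0.318% in anti-Ly6G ears. For Cox6a2 the shares were 18.1 ± 2.77% in anti-OSM ears and 23.5 ± 1.92% in anti-Ly6G ears (SD, n = 3 each). None of the 3 shares overlapped between groups.

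Most skeletal muscle markers moved with the muscle isoforms. Of 27 such genes 0 were higher and 18 lower, with a median log2 fold change of -0.54 and 0 of them at 0 in all libraries. Their summed level was 5444 to 6445 CPM in anti-OSM ears and 8468 to 8905 CPM in anti-Ly6G ears. Myh4, a fast myosin heavy chain, had a log2 fold change of -1.18 (adjusted p = 0.00125) and Atp2a1, the muscle calcium pump, of -0.83 (adjusted p = 0.00177). Of the 9 not called, Tnnc1 (0.31) and Tnni1 (0.04) had positive fold changes, and the others ran from -0.07 (Mb) to -0.34 (Des). Per 1000 counts of the 27 markers, the 3 isoforms together had 6.49, 6.03 and 6.74 counts in anti-OSM ears and 7.02, 6.26 and 6.41 counts in anti-Ly6G ears. The groups overlapped on this scale (0.979-fold), while the summed CPM of the isoforms was 0.659-fold. Most of that sum was Cox6a2, with a mean of 26.9 of 37.4 CPM in anti-OSM ears and 39.5 of 56.7 CPM in anti-Ly6G ears. The scale was not applied to each isoform, and the part of muscle content in their fall was not tested. Cox7a1 and Cox8b are also expressed in brown fat. Its defining marker Ucp1 had 5, 6 and 5 reads in anti-OSM ears and 13, 5 and 8 reads in anti-Ly6G ears, and was not tested. With Ucp1, the 7 brown or beige fat markers outside the set summed to 204 to 297 CPM with anti-OSM and 351 to 418 CPM with anti-Ly6G. Of the 6 tested, 0 were higher and 1 was lower (Cpt1b, log2 fold change -0.53), with a median of -0.35. Cpt1b is also the muscle form of its enzyme. Elovl3 made up much of the sum, at 88.6 to 182 CPM with anti-OSM and 212 to 281 CPM with anti-Ly6G. With so few Ucp1 reads, the sum is not a measure of brown fat content. Elovl3 lay lower without overlap but was not called in the edgeR fit reported (-0.88, adjusted p = 0.0732). It was called lower with DESeq2, with limma-voom, with a replicate block and without anti-OSM replicate 1. Cidea (-0.46), Ppargc1a (-0.24), Otop1 (0.38) and Dio2 (0.16) were not called in the fit reported. The part of brown fat in the fall of Cox7a1 and Cox8b was not tested.

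**Figure D4:**
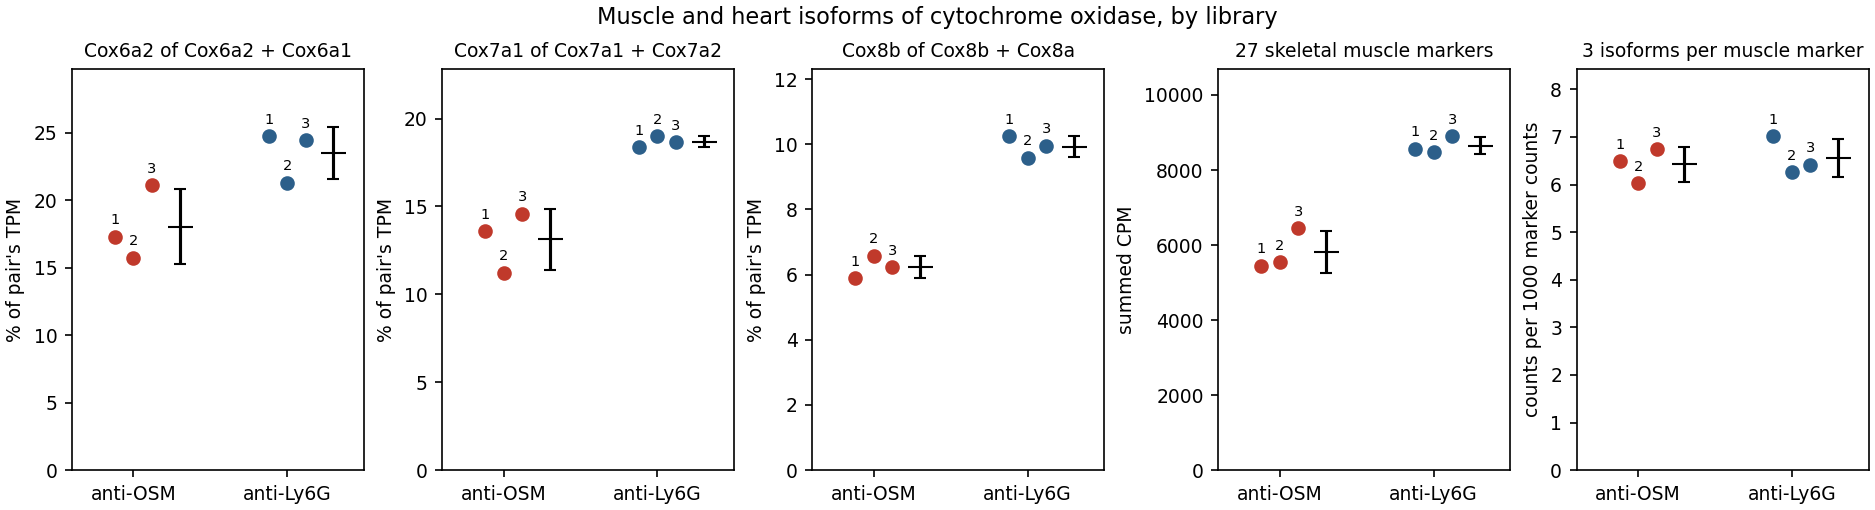
Muscle and heart isoforms of cytochrome c oxidase in each library (points numbered by replicate, anti-OSM left and anti-Ly6G right, and black marks are mean and SD, n = 3). The left 3 panels give the muscle isoform as a share of the TPM of its pair, and the others the summed CPM of 27 muscle markers and the isoform counts per 1000 marker counts. The groups separate in the first 4 panels and overlap in the last.

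Other nuclear genes of complex IV showed smaller or less certain differences. Cox7a2l (gene ID 20463, chromosome 17, 83501917 to 83514333), a relative of subunit 7a that links complexes III and IV into supercomplexes and that C57BL/6 mice carry in a shortened form, rose with anti-OSM. It had 169, 187 and 174 CPM in anti-OSM ears and 131, 145 and 153 CPM in anti-Ly6G ears (log2 fold change 0.31, SE 0.08, adjusted p = 0.0383). Its call was lost with no filter on low counts, with a correction for the trend of each library with transcript length (the length correction), and without any 1 library but anti-Ly6G replicate 3 (adjusted p 0.0253 to 0.133 on leaving out 1). Cox4i2, the oxygen-responsive isoform of subunit 4, known best from lung, fell, with 1.79, 2.21 and 1.79 CPM in anti-OSM ears and 2.75, 3.09 and 3.34 CPM in anti-Ly6G ears. Its log2 fold change was -0.66 (SE 0.16, adjusted p = 0.0331), and the call was lost whichever library was left out (adjusted p 0.0535 to 0.114). Its widespread counterpart Cox4i1 was at 684 ± 8.07 TPM in anti-OSM ears and 654 ± 14.2 TPM in anti-Ly6G ears (SD, n = 3 each), a log2 fold change of 0.09 (adjusted p = 0.384). Cox6b2, a testis isoform at the low end of the set, had 1.98, 2.21 and 2.14 CPM in anti-OSM ears and 1.79, 1.36 and 1.10 CPM in anti-Ly6G ears. Its log2 fold change was 0.57 (adjusted p = 0.105) without overlap.

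In complex V, Atp5g1 fell (gene ID 11951, chromosome 11, 96072793 to 96075694). It is 1 of 3 genes, Atp5g1, Atp5g2 and Atp5g3, that encode the same mature subunit c of the proton-driven ring. It had 69.1, 70.6 and 67.8 CPM in anti-OSM ears and 95.9, 87.1 and 83.8 CPM in anti-Ly6G ears, with a wide gap between the groups. This is a log2 difference of -0.36 (SE 0.07, adjusted p = 0.0155), and the call was lost without each anti-OSM library. Atp5g3 had a log2 fold change of -0.23 (adjusted p = 0.0595) without overlap, and Atp5g2 of -0.02 (95% interval -0.16 to 0.12) with overlap. The 3 genes together had 352 ± 4.39 CPM in anti-OSM ears and 401 ± 9.85 CPM in anti-Ly6G ears (SD, n = 3 each), without overlap. The share of their counts that came from Atp5g1 was 19.6 ± 0.346% in anti-OSM ears and 22.2 ± 1.37% in anti-Ly6G ears. Processed copies of these genes could share reads with them, so their counts are uncertain to that extent. The 5 subunits of the catalytic head and its central stalk (Atp5a1, Atp5b, Atp5c1, Atp5d and Atp5e) were grouped after their values were seen. Of these, 0 passed and 4 were lower without overlap, where 17.3% of all tested genes were so placed. Their median log2 fold change was -0.18. Among them was Atp5b, the catalytic beta subunit and the nuclear gene with the highest TPM of the set, at 871 ± 23.3 TPM in anti-OSM ears and 1002 ± 29.5 TPM in anti-Ly6G ears (SD, n = 3 each) and a log2 fold change of -0.18 (adjusted p = 0.139). ATP6 of the same enzyme had 9901 ± 859 TPM in anti-OSM ears and 6689 ± 914 TPM in anti-Ly6G ears.

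In complex III, Uqcrq (gene ID 22272, chromosome 11, 53427922 to 53430831), a small accessory subunit, fell. It had 78.1, 81.8 and 81.2 CPM in anti-OSM ears and 108.7, 94.0 and 96.8 CPM in anti-Ly6G ears (log2 fold change -0.31, SE 0.07, adjusted p = 0.0272). The call was lost without any 1 anti-OSM library and without anti-Ly6G replicate 1. The other 7 nuclear subunits of the complex did not pass. Uqcrc1, a core protein, had a log2 fold change of -0.22 (adjusted p = 0.0808), and Uqcrh, the hinge protein and the subunit with the highest TPM, of 0.12 (adjusted p = 0.524).

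The 36 nuclear subunits of complex I and the 4 of complex II gave 0 calls in edgeR and in limma-voom. At an unadjusted p below 0.05, 1 subunit of complex I was higher and 7 were lower, with 0 in complex II, and DESeq2 called 2 lower, Ndufa9 and Ndufs1. The length correction called Ndufa8, Ndufa9, Ndufa12 and Ndufb9 lower, and the fit without anti-Ly6G replicate 3 called Ndufv1 lower. Log2 fold changes in complex I ran from -0.23 to 0.18. The 2 smallest p values were those of Ndufa9, which holds a bound nucleotide, at -0.18 (SE 0.06, adjusted p = 0.0740), and Ndufs1, which carries iron-sulphur clusters, at -0.18 (SE 0.06, adjusted p = 0.0747). Ndufa9 had 74.6, 73.7 and 76.4 CPM in anti-OSM ears and 87.8, 84.4 and 83.2 CPM in anti-Ly6G ears. Of the 7 nuclear core subunits, which carry the electrons, 5 were lower without overlap (median -0.16), and of the 29 accessory subunits 7 were (median -0.02), beside 17.3% of all tested genes. This grouping was also made after the values were seen, and the difference between the 2 groups of subunits was not tested. Ndufa4, named for complex I but found in complex IV, was counted with complex I by its symbol. This holds for the accessory subunits and for the ratios by complex too. Ndufa4 had the highest TPM of the Nduf genes at 874 ± 18.3 in anti-OSM ears and 863 ± 131 in anti-Ly6G ears (SD, n = 3 each). Its log2 fold change of 0.04 turned negative without anti-Ly6G replicate 2 or 3. In complex II, the flavoprotein gene Sdha had a log2 fold change of -0.13 (adjusted p = 0.173) and the membrane anchors Sdhc and Sdhd of 0.02 (adjusted p = 0.905) and 0.15 (adjusted p = 0.336).

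The nuclear transcripts are mostly short, 58 of the 83 being under 1000 bases by the length that the deposited TPM and counts imply. Their spread within the anti-Ly6G group followed length. Anti-Ly6G replicate 1 was the highest of its group for 54 of the 83 genes and replicate 2 the lowest for 59. Relative to the group mean, the median log2 deviation of the short genes was 0.11 in replicate 1 and -0.09 in replicate 2, against 0.03 and -0.05 for the longer ones. The rank correlation of deviation with length was -0.55 in replicate 1, 0.42 in replicate 2 and 0.03 in replicate 3, and -0.15, 0.16 and 0.05 in the anti-OSM replicates. These are descriptions over 83 genes that share libraries, and the deviations of a group of 3 are not independent. Over 14347 genes the values for replicates 1 and 2 were -0.27 and 0.30. For the mitochondrially encoded genes replicate 1 was the highest of the anti-Ly6G libraries in 12 of 13 and replicate 2 the lowest in 12 of 13. A fit with a smooth trend on length removed from each library was added after the data were seen. It called 6 mitochondrially encoded genes higher, 12 nuclear genes lower and 0 nuclear genes higher. Of all tested genes it called 5.96% higher and 7.03% lower. The medians were then 0.33 for the mitochondrially encoded and -0.08 for the nuclear genes. What set this spread by length was not tested.

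**Figure D5:**
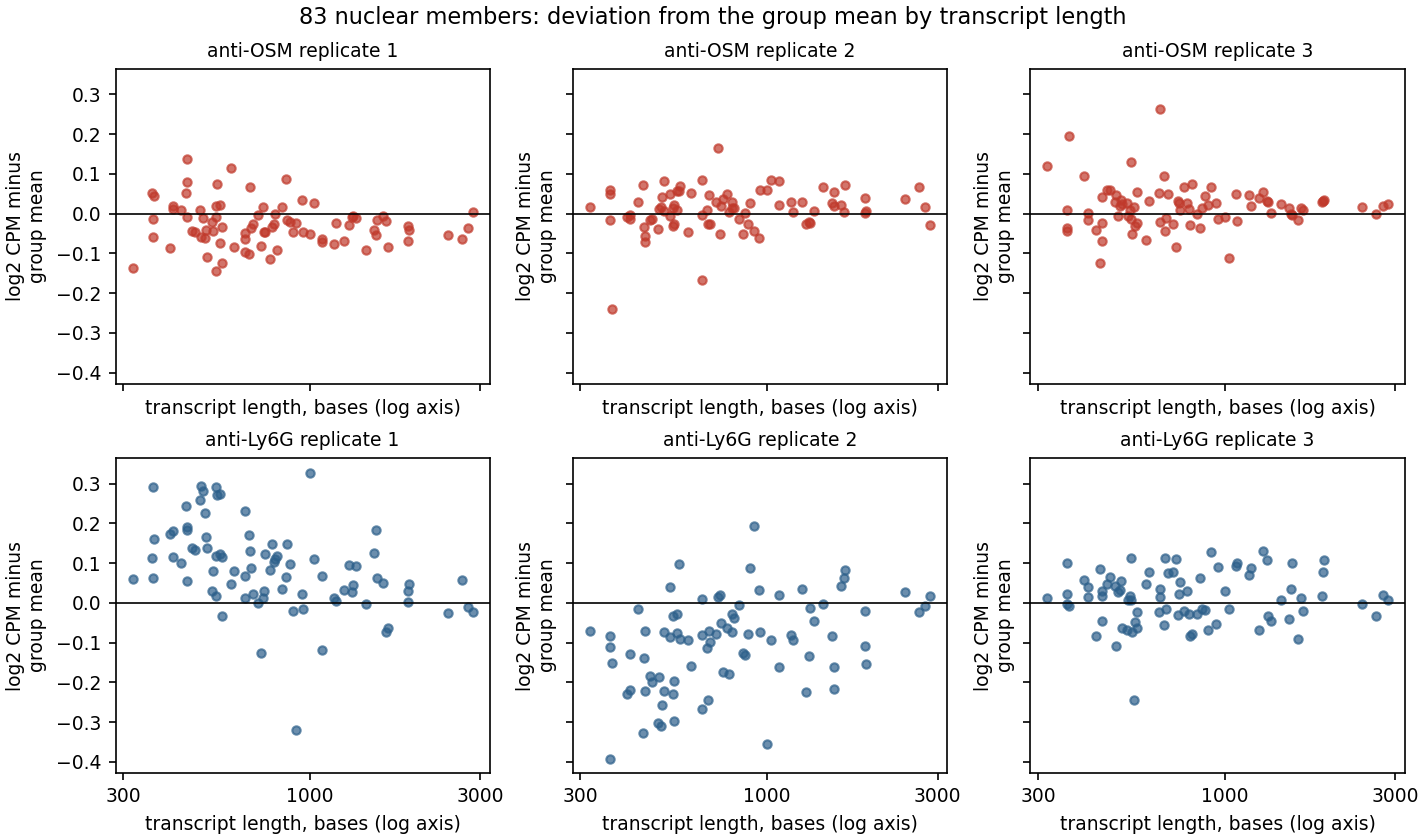
Deviation of log2 CPM from the group mean for the 83 tested nuclear genes (points) against transcript length in bases (log axis), with the 3 anti-OSM libraries above and the 3 anti-Ly6G libraries below. Short genes lie above 0 in anti-Ly6G replicate 1 and below 0 in anti-Ly6G replicate 2, with weaker slopes in the other 4 libraries.

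Genes that serve the chain without being part of the set were described by lists, beside 5.81% of all tested genes called higher and 6.27% called lower. Of 30 further chain and carrier genes 2 were higher and 4 lower (median -0.16). Gpd2, the mitochondrial glycerol phosphate dehydrogenase, fell (log2 fold change -0.40, adjusted p = 0.0224), and Higd2a, an assembly factor of complex IV, rose (0.28, adjusted p = 0.0291). The assembly factors of complex I (18 tested) and of the other complexes (35 tested) gave 0 calls in edgeR, with medians of 0.03 and -0.02. At an unadjusted p below 0.05, 1 was higher and 0 lower in the first list and 4 were higher and 2 lower in the second, where DESeq2 called 1 lower. The lowest adjusted p values among them were 0.166 for Dmac2 and 0.0740 for Surf1, with log2 fold changes of 0.24 and 0.23. Of 32 genes of mitochondrial transcription, replication and RNA handling 0 were higher and 3 lower (median -0.09). These were Lrpprc, which stabilises mitochondrial messenger RNAs (-0.33, adjusted p = 0.0195), Tbrg4 (-0.36, adjusted p = 0.0258), a mitochondrial RNA-binding protein, and the helicase Twnk (-0.36). Of 23 regulators of nuclear respiratory genes 0 were higher and 6 lower (median -0.23). Perm1, a muscle coactivator, fell by 1.06 on the log2 scale (adjusted p = 0.00247) and Hif1a, the oxygen-responsive factor, by 0.79 (adjusted p = 0.00389). Of 17 tricarboxylic acid cycle genes 0 were higher and 4 lower (median -0.17), among them Mdh2, the mitochondrial malate dehydrogenase (-0.32). Of 16 fatty acid oxidation genes Cpt1a was higher (0.63) and Cpt1b, its muscle form, lower (-0.53).

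Markers of other cell types moved between the same libraries as the genes of both genomes. Cartilage markers fell (0 higher and 9 lower of 11 tested, median -0.66), at 320.0 to 336 CPM in sum with anti-OSM and 493 to 536 CPM with anti-Ly6G. Of 10 fibroblast markers 5 rose and 0 fell (median 0.42), with sums of 9719 to 10059 CPM with anti-OSM and 5897 to 8459.9 CPM with anti-Ly6G. Macrophage and monocyte markers had 4 of 13 higher and 0 lower, at 3058 to 3703 CPM with anti-OSM and 1783 to 2712 CPM with anti-Ly6G. Mast cell markers had 5 of 9 higher and 0 lower, at 614 to 692 CPM with anti-OSM and 369.6 to 499 CPM with anti-Ly6G. Eosinophil markers had 3 of 7 higher and 0 lower, at 96.0 to 104 CPM with anti-OSM and 31.2 to 52.9 CPM with anti-Ly6G. T cell markers had 2 of 10 higher and 0 lower, at 96.0 to 109 CPM with anti-OSM and 63.9 to 83.9 CPM with anti-Ly6G. Of 12 keratinocyte markers 1 was higher and 2 lower (median -0.20). White fat markers had 0 of 10 higher and 2 lower, at 533 to 611 CPM with anti-OSM and 638 to 737 CPM with anti-Ly6G. Neutrophil markers had 0 of 12 tested higher and 2 lower, at 179 to 197 CPM with anti-OSM and 140.4 to 201 CPM with anti-Ly6G, the one list here whose summed levels overlapped apart from that of keratinocytes. That list was mixed, with 2 higher and 2 lower at an unadjusted p below 0.05 and 1 higher and 2 lower in DESeq2. Padi4 (-1.30) and Trem1 (-1.03) were called lower in edgeR, while Retnlg (2.06, adjusted p = 0.112) lay higher without overlap. No listed marker was at 0 in all 6 libraries. The part of these cell types in the mitochondrial and nuclear differences was not tested. Cytosolic ribosomal proteins, short and abundant nuclear transcripts of most cells, gave 0 calls of 24 in edgeR, with a median of 0.02. At an unadjusted p below 0.05, 1 of them was higher and 0 were lower, and DESeq2 called 1 higher. Their sums were 21033 to 23208 CPM in anti-OSM ears and 20656 to 22260.3 CPM in anti-Ly6G ears.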

How the data were processed

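RNA sequencing of polyA RNA gave 1 table with 6 libraries, 3 anti-OSM and 3 anti-Ly6G. The other 10 libraries of the series were not analysed here. Per the file headers, the table the authors deposited holds counts, FPKM and TPM for each library. The deposited counts are whole numbers and were tested as they stand. The deposited TPM values sum to 1e+06 per library and were used for levels compared between genes. With the counts they also gave transcript length, scaled to the annotated length of COX1. The deposited FPKM values entered neither the fits nor the lengths. The submitters' processing notes name edgeR 3.40.2, StringTie 2.1.3b, HISAT2 2.1.0, SAMtools 1.9, Trimmomatic 0.38 and bcl2fastq 2.20.0 without saying what each did, and mm10 beside a rat build. Read assignment, strand and the handling of reads that match several places are not given in the sources used here, and nuclear copies of mitochondrial genes and processed pseudogenes could share reads with the genes described.

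All 45777 genes entered edgeR 4.0.16 (R 4.3.3) with filterByExpr, TMM scaling, robust quasi-likelihood fits, 2-sided F-tests and Benjamini-Hochberg adjustment over 19915 tested genes, with no covariate and a threshold of 0.05. Positive log2 fold changes are higher with anti-OSM, and CPM uses TMM-scaled library sizes. A floor of 3 counts is 0.0468 to 0.0575 CPM and covers counting error only. On counts simulated for this comparison over 19586 genes, 54% of 50 genes changed 1.5-fold and 76% of 50 changed 2-fold were recovered, with 9.39% of calls false. Alternatives were other scalings, no filter, DESeq2 1.42.0, limma-voom (limma 3.58.1), a replicate block and leaving out each library. The length correction, the isoform counts per muscle marker and the ratio without COX1 or without 1 library were added after seeing the data. No 2 libraries of a group agreed within counting noise (chi-square of 26.2 per gene or more).

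The members and the 22 lists were chosen with earlier results of these data known. Named genes are all mitochondrially encoded members, the tissue isoforms and their partners, the 2 nuclear members of each complex with the smallest p and the 1 with the highest TPM, all called members, and the 2 genes of each list with the smallest p. Cox6b2, Atp5g2, Ucp1 and any further gene were named after their values were seen. Positions are RefSeq's or GENCODE vM21's for GRCm38.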

Additional observations from a re-analysis of the deposited data

How the results depend on the processing

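The number of mitochondrially encoded genes called higher was 2 in the fit reported, 1 with upper-quartile scaling, 5 with a replicate block, 10 with DESeq2, 6 with the length correction and 0 to 10 without 1 library. For nuclear genes called higher the reported 1 became 0 with no filter and 0 with the length correction, with 0 to 1 without 1 library. For those called lower the reported 6 became 13 with DESeq2 and 12 with the length correction, with 1 to 6 without 1 library. DESeq2 also called more of all genes, 1622 higher and 1764 lower against 1157 and 1249. The length correction called 5.96% of all tested genes higher and 7.03% lower. Fits without 1 library called 1.18% to 7.62% of all tested genes higher and 2.06% to 7.14% lower. The cause of the changes was not tested. The replicate block called 1 nuclear gene higher and 6 lower, and 1326 higher and 1275 lower of all genes. Deviations from the group means of libraries with the same number had correlations of -0.03, 0.11 and 0.26 over 15745 genes for replicates 1, 2 and 3. As 1 pair was below 0.1, the numbers were not taken to pair the libraries.

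The median of the mitochondrially encoded genes stayed at 0.27 to 0.53 and that of the nuclear genes at -0.10 to 0.00330, above 0 without anti-Ly6G replicate 1. Of 544 values for 34 named members, 468 kept their direction and side of the threshold, 36 lost the call, 31 gained one and 9 changed sign, all of them small. These were Cox8a at 0.0081 with total counts and -0.021 to 0.012 without 1 library, Cox7a2 at -0.11 to 0.023 without 1 library, Ndufa4 at -0.011 with the length correction and -0.054 to 0.196 without 1 library, and Sdhc at -0.026 with the length correction and -0.031 to 0.057 without 1 library. Summed muscle isoforms were 0.659-fold in CPM and 0.979-fold per muscle marker count. The smallest nuclear change called was 0.31 on the log2 scale (Cox7a2l), and most nuclear members differed by less than that, so at 3 libraries a group a missed call does not show that they were alike.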
